A study of Schizosaccharomyces pombe with 2 samples.

Results

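Invertase, fructose-1,6-bisphosphatase, glucose-6-phosphate dehydrogenase, a polyol dehydrogenase, a malate permease and a malic enzyme are encoded in fission yeast, Schizosaccharomyces pombe, by inv1, fbp1, zwf1, tms1, mae1 and mae2. These 6 genes were picked by name, with earlier results of these data known, from the 2896 S. pombe genes that have a named probe set of their own on the Affymetrix Yeast Genome 2.0 array. They are represented by 8 of 2914 such probe sets, since mae1 has 3 and each of the other 5 genes has 1. One array carried RNA of log-phase cells that had received 0.5 mM DETA NONOate, a slow nitric oxide donor, for 2 h, and the other carried RNA of untreated log-phase cells. The growth medium was YES, a rich medium, and the temperature 30 °C for both. The labels name no strain or genotype and give no spent or inactive form of the donor as a control, so that what nitric oxide did and what the donor's remainder did cannot be told apart.

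Fission yeast grown on glucose keeps genes for the use of other sugars at a low level. The invertase gene inv1 and the gluconeogenesis gene fbp1 are textbook cases. The zinc finger protein Scr1 represses inv1, while fbp1 is held down through cyclic AMP and protein kinase A and activated by Atf1-Pcr1, the transcription factor of the stress kinase Sty1, and by the zinc finger protein Rst2. NADPH, the reductant that keeps glutathione and thioredoxin reduced, comes in large part from the oxidative pentose phosphate pathway, whose entry enzyme is encoded by zwf1. The gene tms1 encodes a predicted polyol dehydrogenase of the core environmental stress response. Malate enters the cell through the permease encoded by mae1 and is decarboxylated to pyruvate by the malic enzyme encoded by mae2, which in S. pombe is described as NAD-linked. The name of carbon enzymes that are glucose-repressed or supply NADPH thus covers inv1, fbp1 and zwf1 by their known roles, whereas mae1 encodes a transporter and mae2 an enzyme linked to the other cofactor.

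With 1 array in each group there is no replicate check, no test and no p-value, and precision is limited by the number of arrays. Signals are on a linear scale, and ratios are given as log2 of the DETA NONOate signal over the untreated signal. The 95th percentile of the 2601 probe sets for Saccharomyces cerevisiae genes, another yeast, was taken as background and lay at 8.76 on the DETA NONOate array and 7.99 on the untreated array. A gene above it on at least 1 array was called measured, which held for 2889 genes. Control RNAs added during labelling and hybridization gave 64 probe sets above background on both arrays, with log2 ratios between −0.76 and 0.42 (SD 0.24). These limits pool dim and bright probe sets. The lowest came from one with 13.7 on the DETA NONOate array and 23.3 on the untreated array, the highest from one with 194.4 and 145.1. The hybridization controls alone had an SD of 0.14. The brightest of them, the cre probe sets, had log2 ratios from 0.06 to 0.21. The spread of the controls leaves out differences between cultures.

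Relative to untreated cells, DETA NONOate-treated cells had a 3.79-fold higher signal for tms1, a 2.02-fold higher one for inv1 and a 1.85-fold higher one for zwf1. The genes mae2 and fbp1 were 1.32-fold and 1.29-fold higher, and mae1 was 1.11-fold lower. At 2-fold or more, 2 of the 6 genes were higher, against 2.25% of all measured genes, and 0 were lower, against 2.04%. The median log2 ratio of the 6 genes was 0.64, and that of all 2889 measured genes was −0.01. The ratios of tms1, inv1 and zwf1 lay above the highest ratio among the added control RNAs, and those of mae2, fbp1 and mae1 lay within the pooled range of these controls. The gene mae2, a bright one, lay above the bright cre controls (0.40 against at most 0.21). All 6 genes were far above background on both arrays, with signals between 407.4 and 7899.

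**Figure D1:**
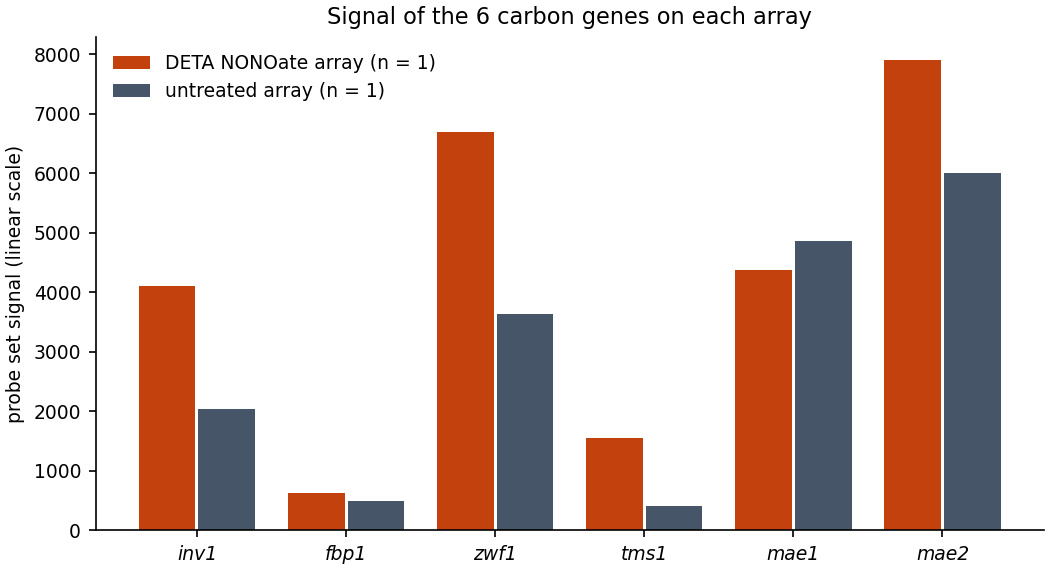
Probe set signal, on a linear scale, of the 6 genes on the DETA NONOate array (left bar of each pair) and the untreated array (right bar), with 1 array per bar and the brightest probe set of mae1. The left bar is the taller one for 5 genes, by the widest ratio for tms1 (1544 against 407.4), and the shorter one for mae1 (4379 against 4852).

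The invertase gene inv1 (SPCC191.11) encodes the secreted enzyme that splits sucrose outside the cell. Its signal was 4107 on the DETA NONOate array and 2034 on the untreated array, a log2 ratio of 1.01. Among all measured genes, 61 had a higher ratio. The value sits just past the 2-fold line. When measured genes were divided into 4 equal classes by mean log2 signal, inv1 fell into the brightest, class 4, in which 22 of 722 genes (3.05%) were at least 2-fold higher and the central 95% of log2 ratios ran from −0.91 to 1.03. The ratio of inv1 was thus at the upper edge of genes of similar brightness, inside the central range as deposited and just outside it after quantile normalization (1.05 against an upper limit of 1.03) and after removal of a trend of ratio on signal (1.065 against 1.056). This comparison was added after the data had been seen.

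The gene fbp1 (SPBC1198.14c) encodes fructose-1,6-bisphosphatase, which opposes phosphofructokinase and is needed when cells make glucose from other carbon sources. Its signal was 621.8 on the DETA NONOate array and 482.2 on the untreated array, a log2 ratio of 0.37, and 346 measured genes had a higher ratio. That ratio lay within the pooled range of the added control RNAs. On the linear scale, the fold of inv1 was 1.57 times that of fbp1. In brightness class 2, which holds fbp1, the central 95% of log2 ratios ran from −0.82 to 0.93.

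The gene zwf1 (SPAC3A12.18) encodes glucose-6-phosphate dehydrogenase, which commits glucose 6-phosphate to the oxidative pentose phosphate pathway. Its signal was 6701 on the DETA NONOate array and 3631 on the untreated array, a log2 ratio of 0.88 that lay just under the 2-fold line. Ratios above it were found for 89 genes. Like inv1 it belongs to brightness class 4, and its ratio lay within the central range of that class. The difference between the log2 ratios of inv1 and zwf1, 0.13, is smaller than the SD of all added control RNAs, dim ones included (0.24). It lies just under the SD of the hybridization controls alone (0.14). The 2-fold line thus parts a pair of genes whose ratios differ little.

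The gene tms1 (SPBC1773.05c), also called xdh1, had a signal of 1544 on the DETA NONOate array and 407.4 on the untreated array. Its log2 ratio of 1.92 was exceeded by 14 of the 2889 measured genes. In brightness class 3, which holds tms1, 10 of 722 genes (1.39%) were at least 2-fold higher and the central 95% of log2 ratios ran from −0.88 to 0.69, so that tms1 stood well outside the range of genes of similar brightness, as it did under each of the 6 other ways of processing. At a 3-fold line tms1 alone of the 6 was higher, against 0.9% of all measured genes, and at a 1.5-fold line tms1, inv1 and zwf1 were, against 5.68%.

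**Figure D2:**
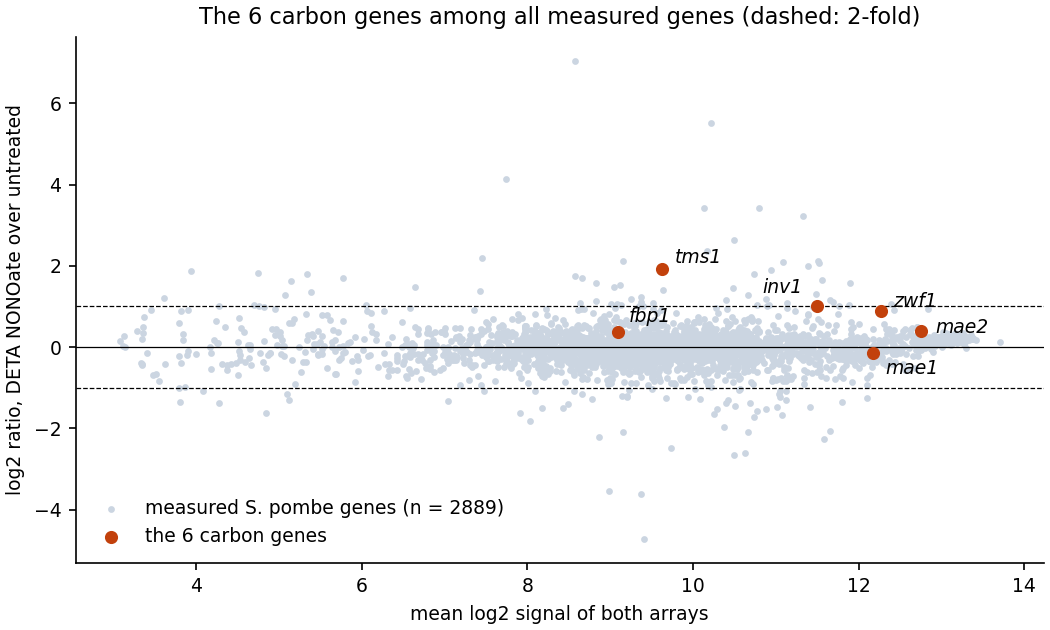
Log2 ratio of the DETA NONOate over the untreated signal (vertical axis) against the mean log2 signal of both arrays (horizontal axis) for the 2889 measured S. pombe genes in grey and the 6 genes in orange, with dashed lines at 2-fold. The gene tms1 lies well above the cloud, inv1 on the upper 2-fold line, zwf1 just under it, and mae1, mae2 and fbp1 lie inside the cloud.

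The malic enzyme gene mae2 (SPCC794.12c) had a signal of 7899 on the DETA NONOate array and 5997 on the untreated array. The log2 ratio was 0.40, and 306 measured genes had a higher one. It was 0.27 after quantile normalization and 0.30 after removal of a trend of ratio on signal. The median log2 ratio of brightness class 4, which holds mae2, was 0.05.

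The malate permease gene mae1 (SPAPB8E5.03) is the single one of the 6 genes with a ratio below 0. Its brightest probe set had a signal of 4379 on the DETA NONOate array and 4852 on the untreated array, a log2 ratio of −0.15 that was exceeded by 1917 measured genes. The ratio lay within 1 SD of the pooled added control RNAs around 0, though not of the hybridization controls alone (SD 0.14). The transcript signals of mae1 and mae2 thus had ratios of opposite sign, 0.55 apart on the log2 scale. Both ratios lay within the pooled range of the added controls, with mae2 above the bright cre controls. Uptake and decarboxylation of malate themselves were not measured.

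The other probe sets named mae1 were far dimmer. One, of a type that can match several transcripts, had a signal of 19.6 on the DETA NONOate array and 11.6 on the untreated array, and was 1.68-fold higher. The last had a signal of 3.55, under background, on the DETA NONOate array and 17.2 on the untreated array, so that it was at least 1.96-fold lower. Near background the probe sets of mae1 therefore pointed in opposite directions, and the brightest one was used for the gene.

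**Figure D3:**
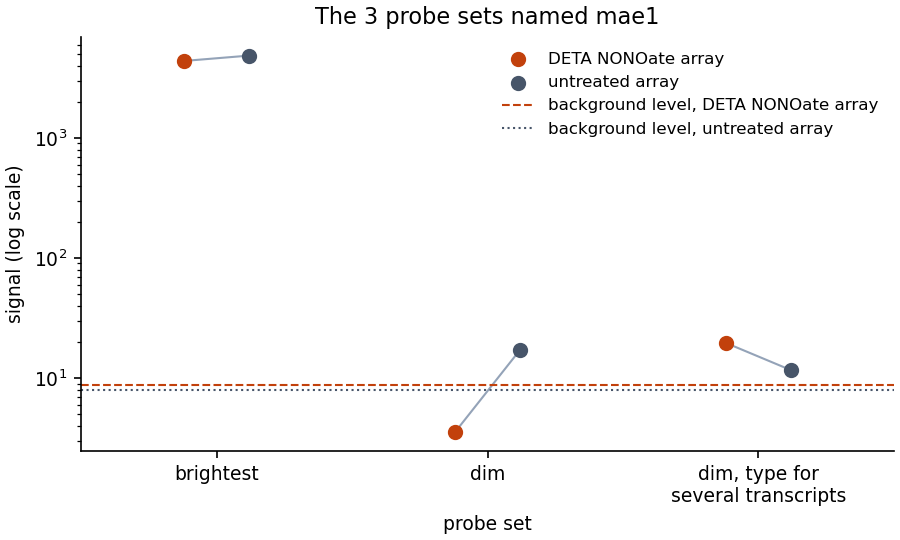
Signal, on a log scale, of the 3 probe sets named mae1 on the DETA NONOate array (orange, left) and the untreated array (grey, right), with the background level of each array as a dashed and a dotted line. The brightest lies at 4379 and 4852, and the others lie at 19.6 or lower, close to background.

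Probe sets for S. cerevisiae genes of the same names were dim. Since background was set at the 95th percentile of all S. cerevisiae probe sets, most of them lie under it by construction. FBP1, ZWF1 and TMS1, the last an unrelated gene of that yeast, had signals of 1.09, 5.66 and 1.28 on the DETA NONOate array and 0.446, 5.34 and 0.947 on the untreated array. MAE1, which in S. cerevisiae encodes the malic enzyme and so corresponds to mae2 rather than mae1, had 6.05 on the DETA NONOate array and 8.13, just over background, on the untreated array. SUC2, the S. cerevisiae invertase gene, had 5.97 and 5.99.

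Related genes were examined as lists. Among glucose-repressed genes, 11 others than inv1 and fbp1 were measured. Of these, 2 were at least 2-fold higher, 0 were 2-fold lower and 9 lay within 2-fold, with a median log2 ratio of 0.45. Of all measured genes, 2.25% were at least 2-fold higher and 2.04% lower, with a median of −0.01. The hexose transporter family gene ght3, known for gluconate uptake, had a signal of 373.2 on the DETA NONOate array and 81.5 on the untreated array and was 4.58-fold higher. The dihydroxyacetone kinase gene dak2 had 1294 on the DETA NONOate array and 489.2 on the untreated array and was 2.65-fold higher. Next came the maltase gene mal1, 1.92-fold higher, and the hexose transporter gene ght4, 1.54-fold higher. The glycerol dehydrogenase gene gld1 and the transporter gene ght6 had log2 ratios of −0.10 and −0.09. The gene ght6 was dim, with 22.2 on the DETA NONOate array and 23.7 on the untreated array. Within this list, inv1 had the third highest ratio and fbp1 lay under the median.

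The list of regulators of glucose repression holds genes for cyclic AMP signalling, the AMP-activated kinase, Scr1 with its Tup corepressors, Rst2, Atf1-Pcr1 and related factors. Of its 29 measured genes 0 differed 2-fold and 21 had ratios above 0, with a median of 0.21. Of all measured genes, 49.2% had ratios above 0, with a median of −0.01. The largest were git5, the G protein beta subunit of the glucose receptor pathway, at 1.71-fold higher, pka1, the catalytic subunit of protein kinase A, at 1.57-fold, git1, which is needed to activate adenylate cyclase, at 1.52-fold, and cgs1, the regulatory subunit of protein kinase A, at 1.37-fold. The repressor gene scr1 had a log2 ratio of 0.24, and the fbp1 activator genes rst2, atf1 and pcr1 had 0.33, 0.37 and 0.39, all within the pooled range of the added controls. The stress kinase gene sty1 had 0.10. Of the 29 genes, 8 had ratios below 0, among them the corepressor genes tup11 and tup12 (−0.07 for both), wis1 (−0.15) and php5 (−0.41).

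Few other genes of the pentose phosphate pathway and NADPH supply could be set beside zwf1, since 8 of the 12 listed genes, among them the 6-phosphogluconate dehydrogenase gene gnd1, have no named probe set and were not analysed here. The transaldolase gene tal1, in the non-oxidative branch, had a signal of 7330 on the DETA NONOate array and 6122 on the untreated array. Its log2 ratio was 0.26, and 0.13 after quantile normalization and 0.17 after removal of a trend of ratio on signal. The genes idp1, for the NADP-linked isocitrate dehydrogenase, and pos5, for an NADH kinase, had log2 ratios of −0.11 and −0.02. The ratio of zwf1 thus exceeded those of the 3 other measured genes, all of which lay within the pooled range of the added controls. The gene tal1, a bright one, lay above the bright cre controls as deposited (0.26 against at most 0.21).

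In the malate and pyruvate list, 4 of 6 other measured genes had ratios below 0, none of them past 2-fold. The median of the 6 was −0.45. Both values include dic1, which in S. pombe encodes a dynein intermediate chain and not a malate carrier. The mitochondrial oxaloacetate carrier gene oac1 was 1.71-fold lower, the fumarase gene fum1 1.62-fold, dic1 1.45-fold and the pyruvate carboxylase gene pyr1 1.29-fold. The gene dic1 was dim, with 15.1 on the DETA NONOate array and 21.9 on the untreated array. The ratio of mae2 was higher than that of each of these 6 genes, and the ratio of mae1 lay between those of pyr1 and sfc1, a gene for a mitochondrial carrier (0.17).

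Among the 7 other measured polyol and alcohol dehydrogenase genes, 0 were 2-fold higher. One gene, the alcohol dehydrogenase gene adh4, was past 2-fold in the lower direction (2.08-fold), with signals of 1045 on the DETA NONOate array and 2176 on the untreated array. The shares of all measured genes were 2.25% higher and 2.04% lower. The quinone oxidoreductase gene zta1, the mitochondrial glycerol-3-phosphate dehydrogenase gene gut2 and the cytosolic glycerol-3-phosphate dehydrogenase gene gpd1 were 1.53-fold, 1.49-fold and 1.37-fold higher. On the linear scale, the fold of tms1 was 2.48 times that of zta1, the next highest.

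The listed enzymes between glucose 6-phosphate and phosphoenolpyruvate, which are shared by glycolysis and gluconeogenesis except for phosphofructokinase (pfk1), stood close together. All 8 measured genes other than fbp1 had ratios between 0.10 and 0.34 on the log2 scale, 0 of them past 2-fold, and eno102, pgk1, fba1 and pgi1 had 0.34, 0.31, 0.31 and 0.29. After quantile normalization 6 of the 8 were above 0, 1 was at 0 and 1 was below, with a median of 0.12 against 0.28 as deposited. The ratio of fbp1, 0.37 as deposited and 0.39 after quantile normalization, exceeded the median of the others by more in the second case.

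**Figure D4:**
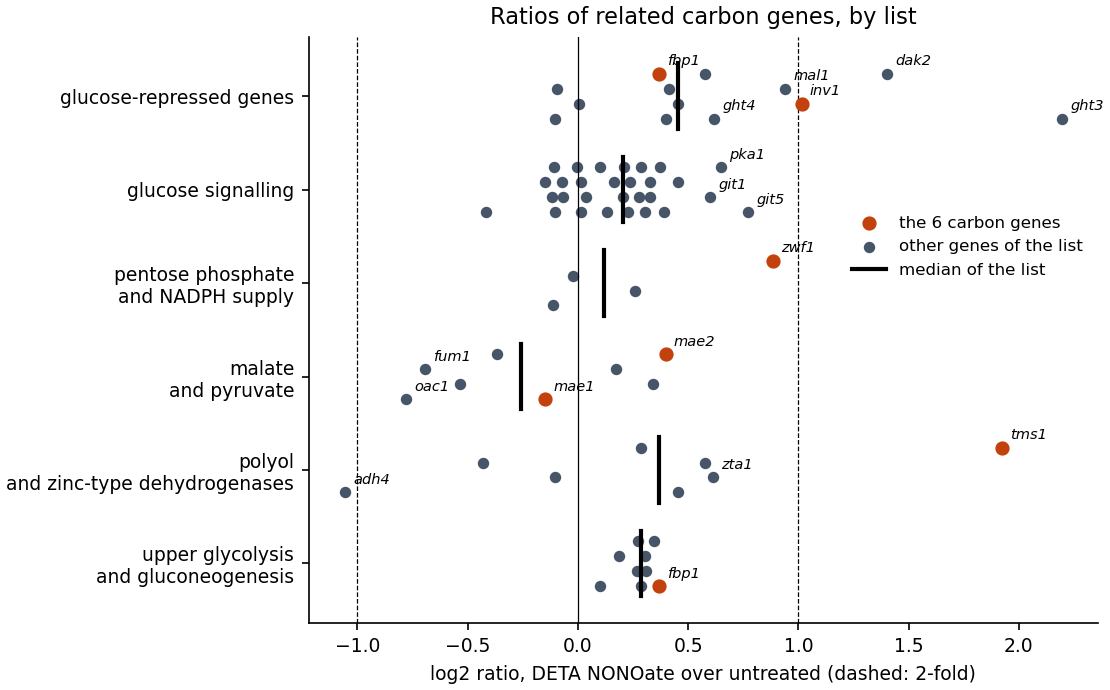
Log2 ratio of the DETA NONOate over the untreated signal for the measured genes of 6 lists, with the 6 genes in orange, the others in grey, the median of each list as a black bar and dashed lines at 2-fold. The genes tms1 and zwf1 lie at the upper end of their lists and fbp1 near the median of the glucose-repressed list. The genes of the malate and pyruvate list, dic1 included, lie mostly below 0.

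Likeness of pattern was taken as the distance between genes in log2 signal over both arrays, which with 2 arrays says only that a pair of signals is similar. It rests largely on the brightness of the probe sets, which is not comparable between genes, and shows no shared pattern. The nearest measured genes were cdc22 and scs7 to inv1 (distances 0.060 and 0.070), fsv1 and pcr1 to fbp1 (0.0057 and 0.015), plr1 and gpx1 to zwf1 (0.22 for both), egt1 and dak2 to tms1 (0.060 and 0.37), apt1 and int6 to mae1 (0.026 and 0.031), and tef101 and cpy1 to mae2 (0.084 and 0.094). The ergothioneine synthesis gene egt1 was 3.58-fold higher, with 1488 on the DETA NONOate array and 415.6 on the untreated array. Of the glutathione peroxidase gene gpx1 the signals were 7523 on the DETA NONOate array and 4009 on the untreated array, and of plr1, for pyridoxal reductase, 7789 and 3713.

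The nearest protein-coding genes on either side of the 6 genes were mostly without a named probe set, and 3 of 12 had one. The bromodomain protein gene bdf1, beside inv1, had a signal of 712.9 on the DETA NONOate array and 745.1 on the untreated array, and cys12, beside zwf1, had 632.3 and 589, log2 ratios of −0.06 and 0.10. The meiotic gene mfr1, beside fbp1, was at 8.16, under background, on the DETA NONOate array and at 8.64, just over it, on the untreated array. The gene adh8, which neighbours tms1 and belongs to the alcohol dehydrogenase family, was not analysed here.

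Genes that mark entry into mating and meiosis, a state that glucose also represses, split evenly by sign as deposited, a split that rests on dim probe sets. Of the 6 listed, 0 differed 2-fold, 3 had ratios above 0 and 3 below, from −0.94 for mei2 to 0.83 for mfm3. Those above 0 were dim. On the DETA NONOate and the untreated array, mei3 had 13.4 and 6.88 (the latter under background), map2 50.0 and 49.6, and mfm3 92.2 and 51.8. Of those below 0, mfm2 had 811.3 and 1281 and ste11 985 and 1078, log2 ratios of −0.66 and −0.13. After quantile normalization 2 were above 0 and 4 below. The part of these genes in the ratios of the 6 carbon genes was not tested.

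**Figure D5:**
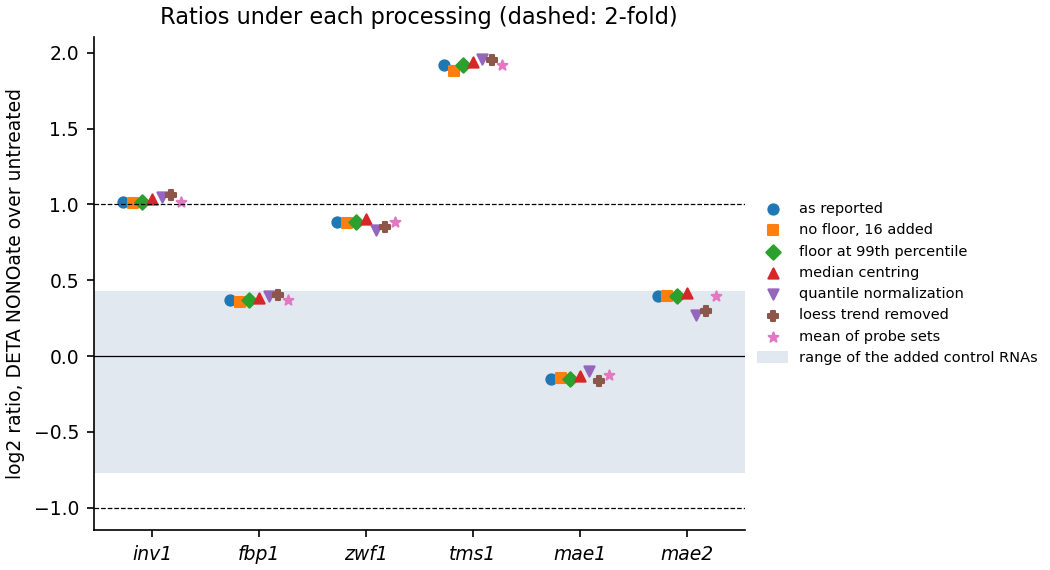
Log2 ratio of each of the 6 genes as reported and under 6 other ways of processing (symbols), with the range of the added control RNAs shaded and dashed lines at 2-fold. The symbols of a gene lie close together, tms1 stays near 1.9, inv1 stays just above 1, zwf1 just under it, and mae1 stays below 0.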

How the data were processed

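The authors' deposited intensity values, 1 per probe set and array on a linear scale, came from Affymetrix Expression Console, as the submitters' processing notes record. The program's version and its way of summarising probes are not given in the sources. Per the labels' protocols, biotin-labelled cRNA came from 250 ng total RNA. The 2% trimmed mean was 500.3 on each array, so ratios are relative to the whole array. Of 10928 probe sets, those naming 1 S. pombe gene were used, with names updated through the RefSeq table of assembly ASM294v3. No genome build belongs to the values, so no coordinates or sequences are given. Signals under background were raised to it before log2, and a gene took its brightest probe set. Python 3.11.15 and statsmodels 0.14.6 were used, and the steps were tested on simulated data. Up to 4 genes per list with the largest absolute ratio, the 2 nearest genes and the neighbours of each member were named, and the planned naming of the closest protein match was not run. Other genes (SUC2, gld1, ght6, scr1, rst2, atf1, sty1, wis1, tup11, tup12, php5, sfc1, gnd1 and adh8, and those in the closing section) were named after their values were seen. The 6 genes and the lists were chosen with earlier results of these data known.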

Additional observations from a re-analysis of the deposited data

Results flagged for a closer look

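Probe sets not used for the ratio of mae1 carried signal above background. The probe set of the type that can match several transcripts had 19.6 on the DETA NONOate array and 11.6 on the untreated array, and the remaining one had 17.2 on the untreated array. Of the 14 genes with several probe sets, mae1 had the widest span of log2 ratios among its probe sets, at least 1.72 because one signal was under background, and the widest gap between its brightest and dimmest probe set on the untreated array, 417-fold, ahead of tlh2 with 32.0-fold. Where every probe set of a gene was brighter than 100, as in 7 of the 14, log2 ratios within a gene lay 0.03 to 0.23 apart. Which transcripts the dim probe sets detect was not tested.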

How the results depend on the processing

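Each array stands alone in its group, so no paired analysis and no left-out replicate were possible. Of 74 values under the alternatives (1.5-fold and 3-fold lines, no floor with 16 added, a 99th percentile floor, centring on the median, quantile normalization, a loess trend removed with span 0.3, and the mean of a gene's probe sets), 69 moved by less than the SD of the added controls or, for counts, stayed within 1.5 times. The others were counts at other fold lines. Some of the values could not move, so the tally overstates stability. The 99th percentile floor left the ratios of the 6 bright genes unchanged. The mean of probe sets can alter only mae1 among them, and centring on the median shifts every gene by the same amount. At 3-fold, 1 of the 6 genes was higher, and of all measured genes 26 were higher and 18 lower. At 1.5-fold, 164 were higher and 191 lower. Log2 ratios ranged from 1.88 to 1.96 for tms1, 1.01 to 1.06 for inv1, 0.83 to 0.90 for zwf1, 0.27 to 0.42 for mae2, 0.36 to 0.40 for fbp1 and −0.17 to −0.10 for mae1. Ratios of dim probe sets, such as those of dic1 and the dim mae1 sets, are the least certain.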

Other observations

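Among the glucose-repressed genes, ght4 lies beside a measured gene of iron uptake, and ght3 and mal1 are each separated from one by 1 protein-coding gene. This feature was noticed after the values were seen and was not tested. The gene ght3 is separated by 1 protein-coding gene, shu1, from the transporter gene str3, which had a signal of 4379 on the DETA NONOate array and 33.0 on the untreated array. The maltase gene mal1 (1017 on the DETA NONOate array and 530 on the untreated array) neighbours ght4 (989.2 and 644.3), and ght4 neighbours the ferric reductase gene frp1 (8039 and 175.5). Beyond frp1 lies the vacuolar iron transporter gene pcl1, with 148.6 on the DETA NONOate array and 1743 on the untreated array. The measured neighbours of inv1 and zwf1, bdf1 and cys12, had log2 ratios of −0.06 and 0.10. The gene shu1 was not analysed here.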
